A study of Homo sapiens with 4 samples.

Results

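The interferon response of ES2 cells was described through 57 genes: interferon-stimulated genes, interferon regulatory factors and genes of antigen processing. They were chosen by symbol from the 23228 genes counted, and the group was selected because SAMD9L and PARP14 were high among its members after EC359. The comparison described below is therefore the one that chose the group, and the values of its members are given as a description. All 57 symbols were present, and 51 had enough reads to be tested, among 12706 tested genes. ES2 is an established human ovarian cancer line, grown here in RPMI with serum. Cells of the vehicle group received 0.1% DMSO and cells of the EC359 group received 10 nM EC359, a small-molecule inhibitor of the leukemia inhibitory factor receptor LIFR, each for 12 h. The study asked how this inhibitor changes gene expression, and mRNA was sequenced in 2 libraries per treatment, which the study describes as biologically independent. The labels do not say whether they came from separate cultures, so the tests measure the spread between these libraries, which may be technical if they did not. All results are for this 1 line, at a single dose and a single time.

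Interferons bind receptors at the cell surface, and kinases such as JAK1 and TYK2 then activate transcription factors. STAT2 and IRF9 act in the complex ISGF3, which binds the interferon-stimulated response element (ISRE), whereas the response to interferon gamma runs through the gamma-activated sequence (GAS). The genes switched on in this way sense viral RNA, block its translation or copying, attach ISG15 or ADP-ribose to proteins, and load peptides onto HLA molecules. LIFR signals through the same family of kinases, chiefly with STAT3. SAMD9 and its close relative SAMD9L are cytoplasmic antiviral proteins that restrain growth, and PARP14 is a large mono-ADP-ribosyltransferase with macrodomains.

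The 4 libraries held between 25572494 and 31707553 reads on genes, and both EC359 libraries were deeper than both vehicle libraries. A library with 0 reads on a gene allows at most 3 reads, which is between 0.0946 and 0.117 RPM (reads scaled to library depth), and this limit covers counting error only. The replicates differed by more than sampling noise (chi-square per degree of freedom 3.81 for vehicle and 2.72 for EC359). Each library entered the fit separately, but this spread does not show whether they came from separate cultures. Of the markers of the line, VIM had 135855 to 153104 reads and KRT18 had 6304 to 8773, while EPCAM had 0 to 2 and KRT19 had 5 to 23. KRT8 had 556 to 770 reads, WT1 had 76 to 119, and PAX8, a marker of Müllerian epithelium, 24 to 41. The epithelial marker EPCAM was thus close to absent, while the keratins KRT8 and KRT18 were present. Of 11 leukocyte and blood markers, 10 had 0 to 6 reads in each library, PTPRC (CD45) had at most 1, and HLA-DRA had 45 to 64. Fewer cells that carry a transcript and less of it per cell cannot be told apart in bulk RNA.

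The promoters of members at the centre of the description are printed here to show where letters that interferon-activated factors are known to bind occur. SAMD9L, whose window holds no exact match to these letters, is printed beside them. Near matches were not sought, so a window without capitals may still hold a similar element. They were read 5′ to 3′ on the strand of the gene, from RefSeq (GRCh38.p14 table), and placed in GRCh37, the build of the counts, by exact match. Each ends at the base before the RefSeq transcription start. Capitals mark ISRE letters (GAAANNGAAA, or TTTCNNTTTC where the match is on the other strand) and GAS letters (TTCNNNGAA, the same on both strands).
SAMD9L, chr7:92777699-92777948, minus strand: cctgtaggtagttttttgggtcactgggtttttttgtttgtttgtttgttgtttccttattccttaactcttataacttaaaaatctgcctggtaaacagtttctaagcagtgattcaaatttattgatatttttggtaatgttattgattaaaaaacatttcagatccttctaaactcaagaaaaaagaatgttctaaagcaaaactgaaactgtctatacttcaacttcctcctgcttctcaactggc
SAMD9, chr7:92747293-92747542, minus strand: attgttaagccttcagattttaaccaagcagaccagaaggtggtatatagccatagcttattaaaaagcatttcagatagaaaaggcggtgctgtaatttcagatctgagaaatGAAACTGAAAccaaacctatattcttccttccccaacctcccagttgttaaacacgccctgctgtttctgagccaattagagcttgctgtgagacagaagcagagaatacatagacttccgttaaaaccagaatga
PARP14, chr3:122399436-122399685, plus strand: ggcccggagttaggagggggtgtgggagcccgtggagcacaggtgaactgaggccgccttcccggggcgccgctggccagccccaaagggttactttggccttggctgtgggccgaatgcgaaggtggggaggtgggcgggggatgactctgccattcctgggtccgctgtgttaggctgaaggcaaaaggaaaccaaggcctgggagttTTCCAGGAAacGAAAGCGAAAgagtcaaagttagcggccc
PARP12, chr7:139762752-139762901, minus strand: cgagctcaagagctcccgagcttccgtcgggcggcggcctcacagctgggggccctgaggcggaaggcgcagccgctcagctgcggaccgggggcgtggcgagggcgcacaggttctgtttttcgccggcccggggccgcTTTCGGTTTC
DDX60, chr4:169239904-169240053, minus strand: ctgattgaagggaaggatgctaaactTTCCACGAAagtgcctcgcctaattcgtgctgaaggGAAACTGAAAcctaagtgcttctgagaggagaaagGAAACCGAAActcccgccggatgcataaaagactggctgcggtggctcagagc
IFIT3, chr10:91087579-91087753, plus strand: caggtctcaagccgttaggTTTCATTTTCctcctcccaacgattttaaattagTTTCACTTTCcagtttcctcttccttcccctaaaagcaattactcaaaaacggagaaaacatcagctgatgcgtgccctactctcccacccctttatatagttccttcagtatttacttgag
ISG15, chr1:948727-948876, plus strand: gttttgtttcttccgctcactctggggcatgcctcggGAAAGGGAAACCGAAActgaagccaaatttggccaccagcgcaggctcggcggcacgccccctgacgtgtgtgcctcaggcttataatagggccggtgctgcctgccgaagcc

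A RefSeq promoter of 300 bases (250 before and 50 after the start) was found for 47 of the 57 members. Promoters were not matched for IFIT2, IRF2, IRF3, IRF7, OAS2, OASL, PARP10, PML, TRIM22 and USP18. ISRE letters on either strand occurred in 26 of the 47 promoters, or 55.3%, against 3.57% of all 35116 promoters in the table. GAS letters occurred in 10, or 21.3%, against 7.66% of all promoters. The members were listed as interferon-response genes, so nothing is read from these differences in share. Each member was given a single promoter, whereas the share over all promoters counts every promoter in the table. Of 46 ISRE matches in members, 43 began before the start and 3 after it. In PARP14 a GAS match began 40 bases before the start and an ISRE match 29 bases before it. SAMD9 held an ISRE match 136 bases before its start, whereas the window of SAMD9L held no exact match to either set of letters. DDX60 held ISRE matches at 88 and 53 bases and a GAS match at 124 bases before the start. Both motifs occurred in 5 members, and in 2 of these a match of one overlapped a match of the other. A match describes letters in this window and is not evidence that a factor binds there.

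**Figure D1:**
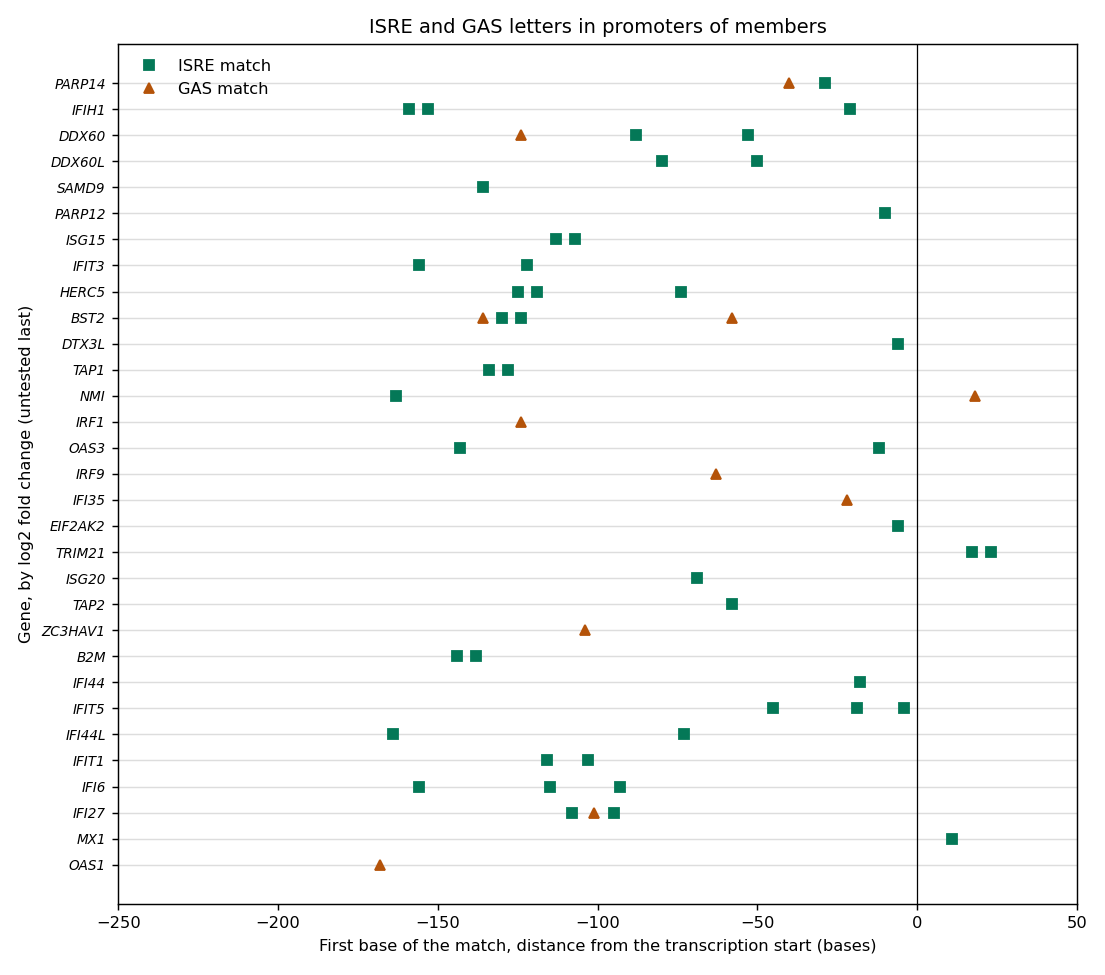
Position of ISRE letters (squares) and GAS letters (triangles) in the promoters of members that hold either, as distance in bases from the RefSeq transcription start (vertical line at 0); genes are ordered by log2 fold change, with untested genes last. Matches lie mostly before the start (43 of 46 for ISRE), where 250 of the 300 searched bases also lie. SAMD9L is not drawn because its window held no exact match to either motif.

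In ES2 cells treated with EC359, transcripts of SAMD9L, SAMD9 and PARP14 rose, and no other member was called. Across the 51 tested members the median log2 fold change (EC359 against vehicle) was 0.17, with a range from -0.32 to 0.87, and 38 lay above 0 and 13 below. The median over all 12706 tested genes was 0.0029, with 6476 above 0 and 6230 below. IRF7 (0.85), UBE2L6 (0.64) and PSMB9 (0.62) had larger log2 fold changes than PARP14 (0.59), at lower counts and with wider errors. Without SAMD9L and PARP14 the member median was 0.15. Without EC359 replicate 2 the median of members was 0.083, and without vehicle replicate 1 it was 0.10. A gene was called where its p from the edgeR quasi-likelihood fit, adjusted over all tested genes by the method of Benjamini and Hochberg, was under 0.01. By this threshold 3 members were called higher and 0 lower. Over all genes 38 were called higher, or 0.299%, and 101 lower, or 0.795%. At an unadjusted p under 0.05 there were 15 members higher and 0 lower, against 10.7% and 11% of all tested genes. DESeq2 called the same number of members, 3 higher and 0 lower. Because the group was chosen on this comparison, nothing is read from the difference between these counts. With either EC359 library left out, 0 members were called by edgeR, with 11 (without EC359 replicate 1) and 9 (without EC359 replicate 2) higher and 0 lower at an unadjusted p under 0.05. Over all genes tested in these fits the shares were 5.68% higher and 5.66% lower without EC359 replicate 1, and 5.46% higher and 5.7% lower without EC359 replicate 2. Counted by library, 21 members had both EC359 values above both vehicle values, 6 had both below, and 24 overlapped. Over all tested genes the same separation was seen upward in 26.1% and downward in 25.4%.

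**Figure D2:**
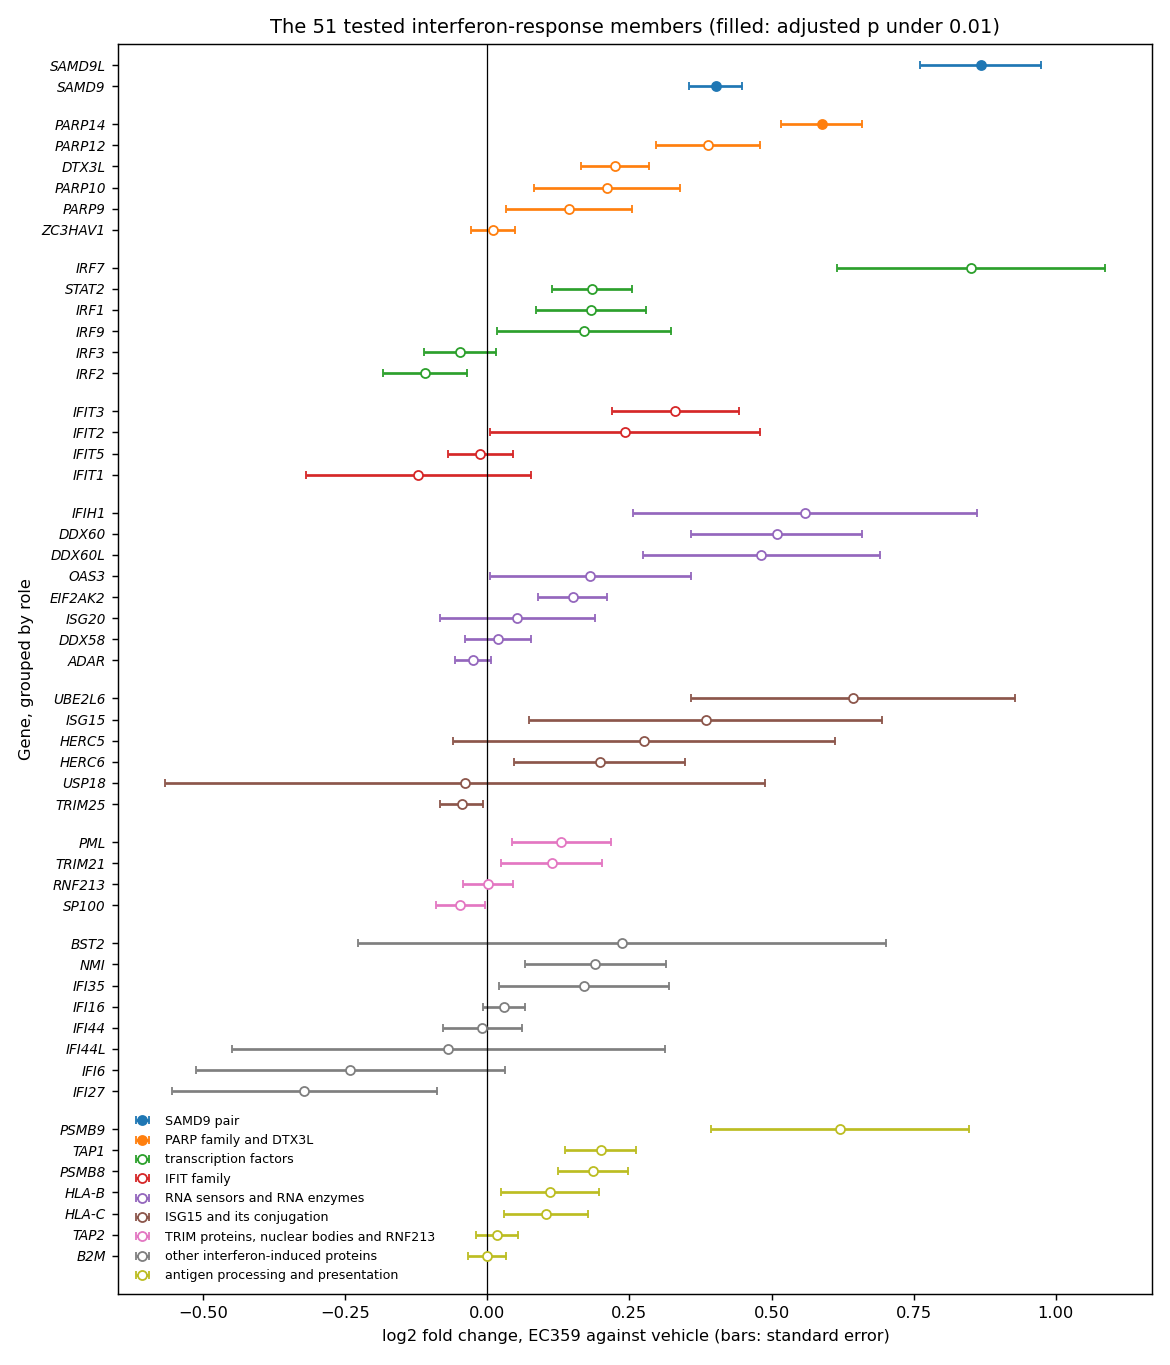
Log2 fold change of the 51 tested members (EC359 against vehicle, 2 libraries each), grouped by role, with bars of 1 standard error; filled points had an adjusted p under 0.01. SAMD9L (0.87), PARP14 (0.59) and SAMD9 (0.40) are filled, and genes with few reads, such as USP18 and BST2, have the widest bars.

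The SAMD9 genes lie next to each other on chromosome 7, both on the minus strand of GRCh37 (SAMD9 at chr7:92728826-92747336 and SAMD9L at chr7:92759369-92777698), 12032 bases apart. SAMD9L had 165 and 161 normalized counts in vehicle and 301 and 294 in EC359, where a normalized count is a read count scaled to a common library size. Both EC359 libraries stood well above both vehicle libraries, and the log2 fold change was 0.87 (SE 0.11), or 1.82-fold. SAMD9 had 1973 and 1886 normalized counts in vehicle and 2568 and 2530 in EC359. Its groups were also apart, with a smaller log2 fold change of 0.40 (SE 0.046), or 1.32-fold. The annotated exons of the pair shared 0% of their 50-base windows with each other or with any other gene, the read length, so no read within an exon of either matches the other exactly. Scaled by transcript length, SAMD9 was the more abundant of the pair, with 10.1 ± 0.319 (SD, n = 2) RPKM (reads scaled to library depth and to kilobases of transcript) in vehicle and 13.3 ± 0.143 in EC359. SAMD9L had 0.807 ± 0.0110 RPKM in vehicle and 1.47 ± 0.0231 in EC359. The nearest tested genes on either side of the pair, CDK6 and CCDC132, had log2 fold changes of -0.071 and 0.097, and neither was called.

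**Figure D3:**
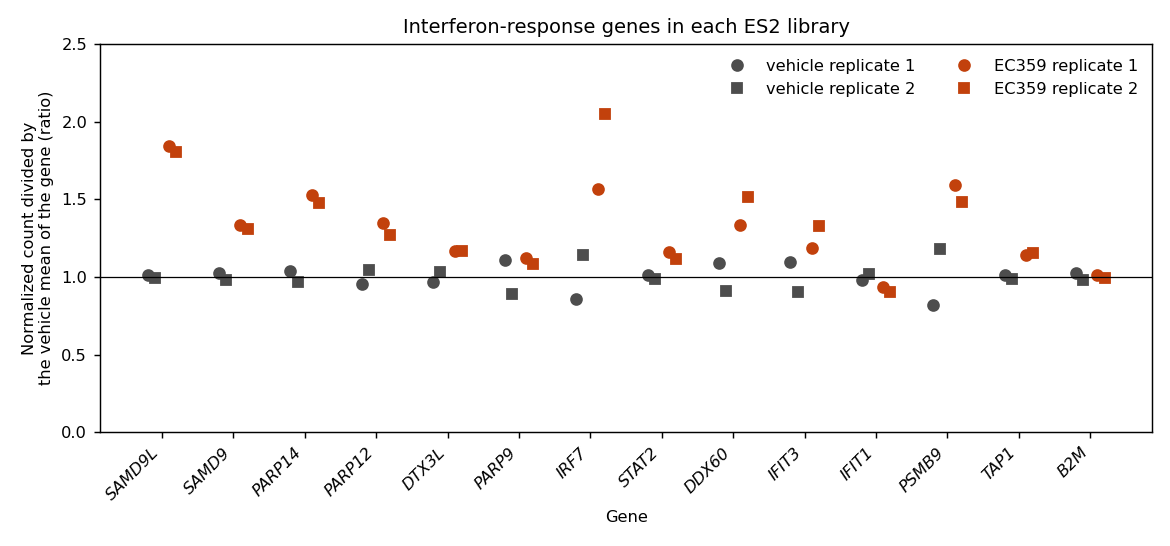
Normalized count of 14 members in each library, divided by the mean of the 2 vehicle libraries of that gene (ratio, line at 1); circles are replicate 1 and squares replicate 2, grey for vehicle and orange for EC359. For SAMD9L, SAMD9 and PARP14 both EC359 points lie above both vehicle points with little spread, whereas PARP9 and B2M overlap.

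Of the genes of ADP-ribosylation, 5 encode PARP proteins and DTX3L encodes the ubiquitin ligase that pairs with PARP9. PARP14 had 550 and 512 normalized counts in vehicle and 811 and 785 in EC359. The groups did not overlap, and the log2 fold change was 0.59 (SE 0.072), or 1.503-fold. PARP14 (chr3:122399686-122449687, plus strand) lies 105635 bases from DTX3L (chr3:122283185-122294050, plus strand), which overlaps the start of PARP9 (chr3:122246771-122283424, minus strand). DTX3L had 1039 and 1114 normalized counts in vehicle and 1259 and 1258 in EC359, a log2 difference of 0.23 (SE 0.059). Its neighbour PARP9, transcribed the opposite way, had 355 and 284 in vehicle and 358 and 346 in EC359. Here vehicle replicate 1 lay between the EC359 libraries, so the groups overlapped, and the log2 difference was 0.14 (SE 0.11). The overlap takes 2.41% of DTX3L exon bases and 1.56% of PARP9 exon bases. Because the strand setting of the counting was not given in the sources used here, reads from that stretch cannot be assigned with certainty.

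PARP12, another mono-ADP-ribosyltransferase, had 292 and 318 normalized counts in vehicle and 410 and 388 in EC359, with no overlap and a log2 difference of 0.39 (SE 0.091). It was the member nearest below the called ones, since 4 members had an adjusted p under 0.05 and PARP12 was the only addition to the 3. At that threshold 1.68% of all tested genes were higher and 2.64% lower. PARP10 differed by 0.21 on the log2 scale and its groups also did not overlap. ZC3HAV1, the zinc-finger antiviral protein that binds CpG-rich RNA, had 3251 and 3275 in vehicle and 3265 and 3308 in EC359, and its values overlapped. All 6 members of this set had log2 fold changes above 0 with their median at 0.22, and 1, PARP14, was called. ZC3HAV1, at 0.011, turned to -0.013 once a trend with transcript length was removed.

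Among the transcription factors, IRF7, which drives transcription of type I interferon genes, had the largest log2 fold change, 0.85 (SE 0.24). It had 34.5 and 45.6 normalized counts in vehicle and 62.8 and 82.2 in EC359. The EC359 libraries were both higher, but IRF7 had 31 to 88 reads per library and was not called. STAT2, a subunit of ISGF3, had 590 and 578 in vehicle and 676 and 651 in EC359, a log2 difference of 0.18 (SE 0.070) without overlap. IRF1 and IRF9, at 0.18 and 0.17, were also higher in both EC359 libraries. IRF9 shares 92.8% of its 50-base windows with a GENCODE transcript annotated at the same place. Reads were counted on RefSeq genes, and whether this sharing affected the count was not tested. IRF1 shares 15.7% of its windows with other genes. IRF2, which can repress these promoters, had 539 and 565 in vehicle and 512 and 511 in EC359, with a log2 difference of -0.11. IRF3, the factor activated by nucleic acid sensors, differed by -0.048 with overlapping groups. None of the 6 factors was called.

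The IFIT genes encode proteins that bind foreign RNA ends, and they are among the most strongly interferon-induced genes known. IFIT3 had 331 and 272 normalized counts in vehicle and 358 and 401 in EC359, without overlap and with a log2 difference of 0.33 (SE 0.11). IFIT1 was lower in both EC359 libraries, at 56.7 and 59.0 in vehicle against 54.0 and 52.3 in EC359, a log2 difference of -0.12 (SE 0.20). IFIT2 and IFIT5 overlapped between treatments, with log2 differences of 0.24 and -0.012. Of these 4 neighbours in function, 2 therefore lay above 0 and 2 below, and 0 were called.

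Of the 11 sensors and enzymes of RNA, 8 were tested and 7 of these had a log2 fold change above 0. DDX60, a helicase that assists RNA sensing, had 125 and 104 normalized counts in vehicle and 152 and 173 in EC359, with a log2 difference of 0.51 (SE 0.15). Its relative DDX60L had 45.6 and 43.4 in vehicle and 66.3 and 57.9 in EC359, and IFIH1 (MDA5), a sensor of viral RNA, had 18.9 and 21.1 against 25.7 and 33.6. In all of these the EC359 libraries were the higher, although IFIH1 rests on 17 to 36 reads per library. The kinase EIF2AK2 (PKR), which shuts off translation, had 1253 and 1226 in vehicle and 1435 and 1314 in EC359, a log2 difference of 0.15 (SE 0.061). ADAR, the adenosine deaminase of RNA, was nearly level at 9872 and 9873 in vehicle and 9702 and 9699 in EC359, with a log2 difference of -0.025 (SE 0.031). DDX58 (RIG-I) overlapped between treatments at 1772 and 1659 in vehicle and 1806 and 1669 in EC359, and 96.6% of its windows are shared with an overlapping annotated gene. OAS3 and ISG20, enzymes of RNA decay and its control, also overlapped, with log2 differences of 0.18 and 0.053. None of the 8 was called, with DDX60 the largest among those with at least 50 mean normalized counts.

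ISG15 is a ubiquitin-like protein, and UBE2L6 and HERC5 help attach it to targets while USP18 removes it. ISG15 itself had 24.5 and 39.0 normalized counts in vehicle and 32.7 and 50.4 in EC359, so its groups overlapped despite a log2 difference of 0.38 (SE 0.31). UBE2L6 had 37.8 and 25.6 in vehicle and 40.7 and 58.8 in EC359, which did not overlap, with a log2 difference of 0.64 (SE 0.29). HERC6 had 128 and 146 in vehicle and 142 and 173 in EC359 and overlapped. HERC5, at 14 to 23 reads, differed by 0.28, and USP18, at 5 to 16 reads, by -0.039 with an SE of 0.53. USP18 also shares 27.0% of its windows with other genes, chiefly USP41. TRIM25, a ligase for RIG-I, was the abundant gene of this set, with 3807 and 3733 in vehicle and 3688 and 3617 in EC359 and a log2 difference of -0.045 (SE 0.038). The median of the 6 log2 differences was 0.24, and no gene of the set was called.

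PML, which builds nuclear bodies, had 701 and 769 normalized counts in vehicle and 742 and 868 in EC359, with overlapping groups and a log2 difference of 0.13 (SE 0.087). TRIM21, the cytosolic antibody receptor, RNF213, a ubiquitin ligase, and SP100, a nuclear body component, also overlapped, with log2 differences between -0.047 and 0.11. Of the remaining induced proteins, NMI had 262 and 345 in vehicle and 333 and 360 in EC359, and a log2 difference of 0.19 (SE 0.12). The DNA sensor IFI16, the most abundant of these, had 12536 and 11864 in vehicle and 12705 and 12189 in EC359. IFI27 had the lowest log2 fold change of all tested members, -0.32 (SE 0.23), at 45.6 and 55.6 normalized counts in vehicle and 36.3 and 44.8 in EC359. IFI6 shares 21.9% of its windows with an overlapping annotated gene. It was also lower in both EC359 libraries, with a log2 difference of -0.24 (SE 0.27) at 25 to 33 reads. IFI35 was higher in both, at 0.17. IFI44, IFI44L and the membrane tether BST2 overlapped between treatments. The 8 tested genes of this set split evenly, 4 above 0 and 4 below, with a median of 0.010.

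In antigen processing TAP1, a chain of the peptide transporter, and PSMB8 and PSMB9, subunits of the immunoproteasome, were higher in both EC359 libraries, whereas TAP2, the HLA genes and B2M overlapped. TAP1 had 787 and 766 normalized counts in vehicle and 886 and 896 in EC359, a log2 difference of 0.20 (SE 0.063). PSMB8 had 1035 and 965 in vehicle and 1128 and 1147 in EC359, a log2 difference of 0.19 (SE 0.061). PSMB9 had 35.6 and 51.2 in vehicle and 69.0 and 64.4 in EC359, a log2 difference of 0.62 (SE 0.23). Its exons overlap those of PSMB8 on the other strand and those of PSMB8-AS1 on its own strand. TAP1 exon bases overlap an antisense gene over 14.2%, which the counting may not separate. TAP2, the partner of TAP1 in the transporter, overlapped between treatments with a log2 difference of 0.017. It shares 35.3% of its windows with an overlapping annotated gene. B2M, the invariant chain of HLA class I, had 14604 and 13971 in vehicle and 14417 and 14153 in EC359, with a log2 difference of -0.00020 (SE 0.033). HLA-B and HLA-C differed by 0.11 and 0.10 with overlapping groups, and HLA-B shares 20.6% of its windows with other genes. None of the 7 genes was called.

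**Figure D4:**
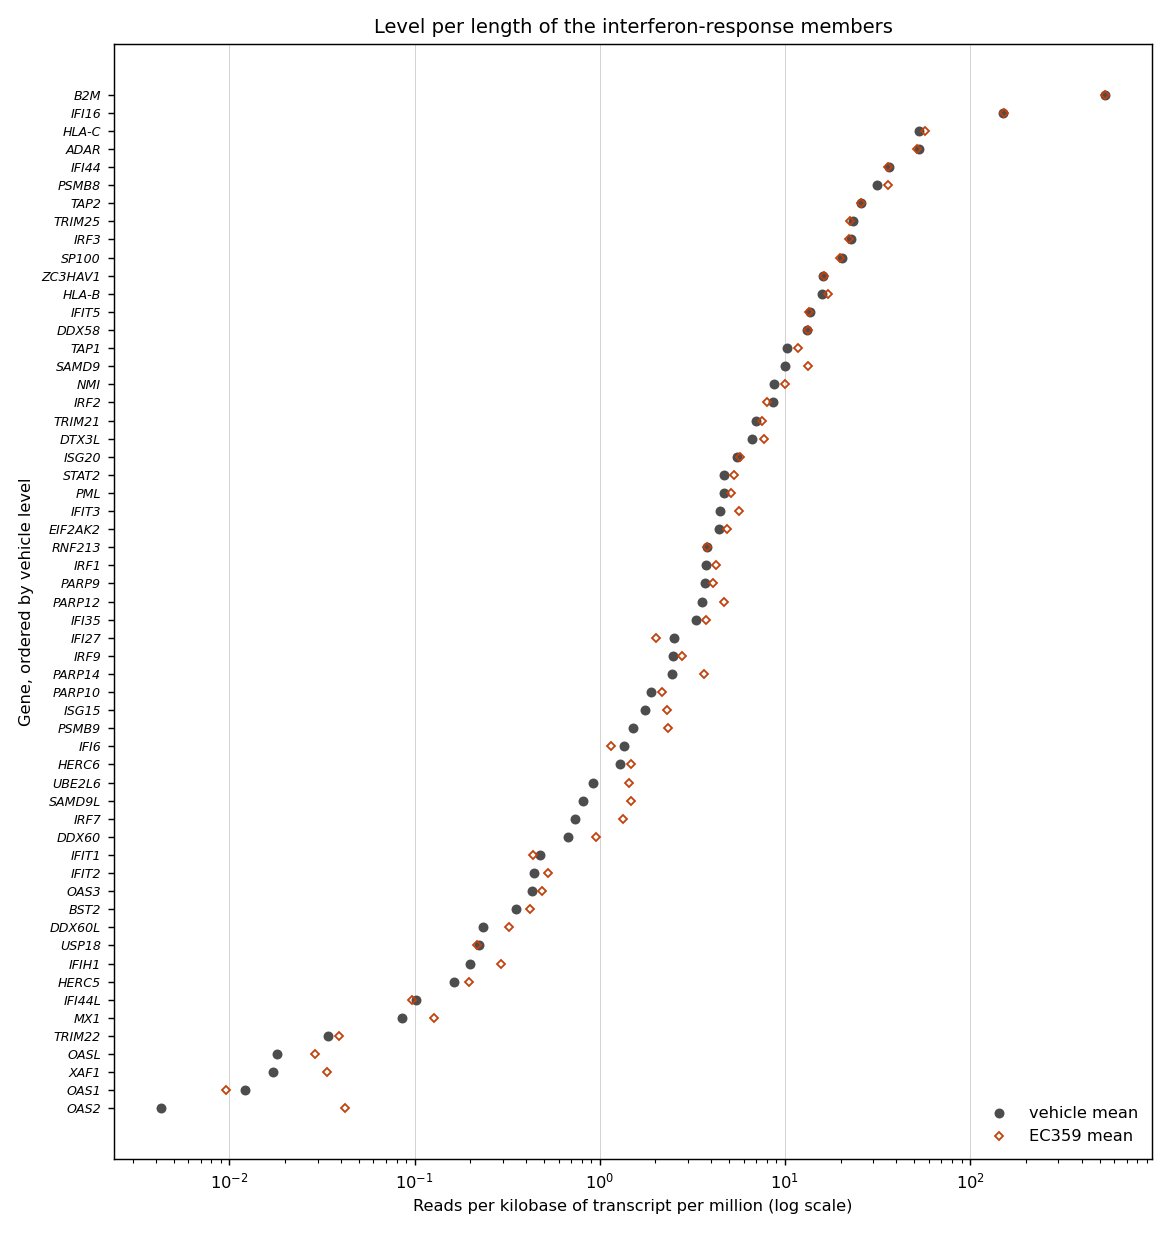
Mean level of the members per length of transcript (RPKM, log axis) in vehicle (filled circles) and EC359 (open diamonds), 2 libraries each, ordered by vehicle level. Levels run from B2M at 537 RPKM to OAS2 at 0.00427 RPKM in vehicle, and SAMD9L, at 0.807, lies in the lower part of the order.

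Scaled by length, the members spanned a wide range in vehicle-treated cells. B2M was highest at 537 RPKM, followed by IFI16 at 150 RPKM, HLA-C at 53.2 RPKM and ADAR at 52.9 RPKM, and HLA-C and ADAR did not differ beyond their spread. PARP14 stood at 2.45 RPKM in vehicle and 3.68 RPKM in EC359. IRF7 stood at 0.738 RPKM in vehicle and 1.34 RPKM in EC359, and ISG15 at 1.76 RPKM and 2.31 RPKM. Genes that are widely used as interferon reporters were near the limit of detection. MX1 had 5 and 7 reads in vehicle and 12 and 10 in EC359, OAS1 had 0 or 1 read in each library, and OAS2 had 0 and 1 read in vehicle and 5 and 7 in EC359. OASL had 1 to 5 reads, XAF1 1 to 6 and TRIM22 1 to 4. The filter on low counts kept these 6 genes out of the test.

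The size of the difference varied with the level of the gene. In 15 members with under 100 mean normalized counts the median log2 fold change was 0.24, with a median SE of 0.27. In 19 members with 100 to under 1000 counts it was 0.18, with 18 of the 19 above 0 and a median SE of 0.11. In 17 members with 1000 or more counts it was 0.011, with 10 above 0. The medians over all tested genes in the same ranges were 0.035, 0.020 and -0.0076. SAMD9L and PARP14 belong to the middle range and SAMD9 to the highest. By presence of ISRE letters, the log2 differences of the 25 tested members that held them had their median at 0.19, with 18 above 0. The 19 tested members whose promoter lacked them had a median of 0.14, with 16 above 0, and these include SAMD9L. The difference between these medians was not tested.

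**Figure D5:**
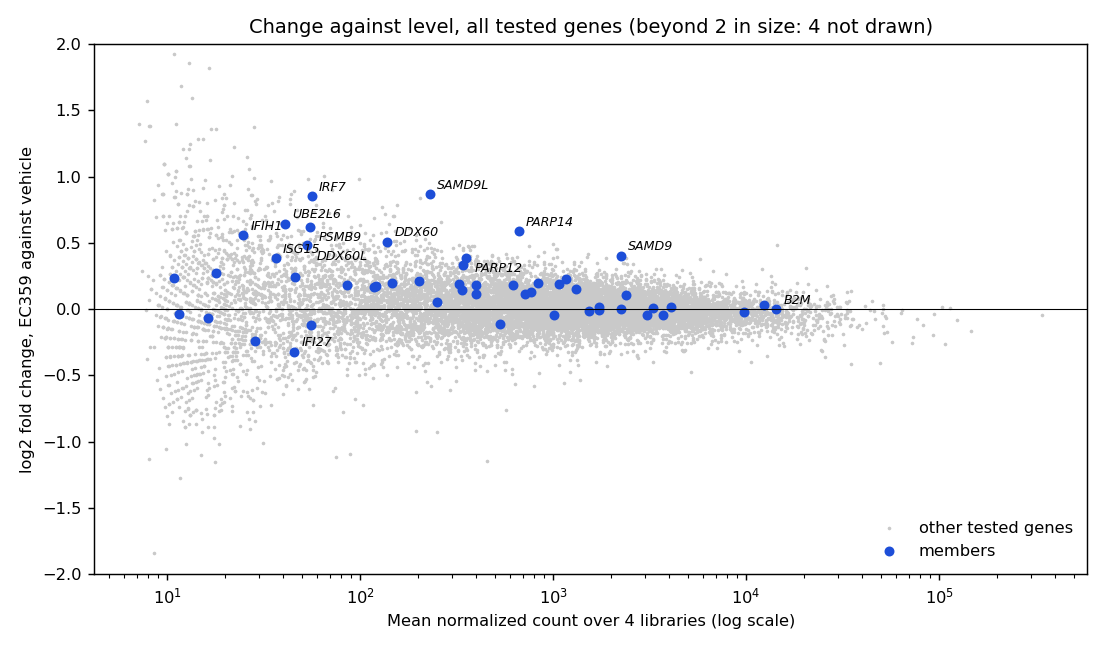
Log2 fold change (EC359 against vehicle) against mean normalized count over the 4 libraries (log axis) for all tested genes (grey) and the tested members (blue); 4 genes beyond 2 in size are not drawn. The members with 1000 or more counts lie between -0.048 and 0.23 apart from SAMD9 (0.40), while SAMD9L (0.87) and PARP14 (0.59) lie near the upper edge of the grey points at their level.

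The other genes of the pathway were taken from lists of signalling and sensing genes and of further interferon-response genes that are not members. The ligands were close to silent: IFNA1, IFNB1, IFNG, IFNK and IFNW1 had 0 reads in all 4 libraries, which allows up to 3 reads each, IFNA2 had 1 read in a vehicle library, and IFNE had 2 to 9 reads. The receptor chain IFNAR1 was expressed, with 1945 and 1793 normalized counts in vehicle and 2078 and 1990 in EC359, and was not called. The transcript of STAT3, the usual effector of LIFR, differed by 0.0034 on the log2 scale. Transcript level does not measure STAT3 activation, which the study reports as reduced by EC359 in other ovarian cancer lines. STAT6, the factor of interleukin-4 signalling, fell, from 4209 and 4185 to 3373 and 3527, with a log2 fold change of -0.28 (SE 0.039) and an edgeR adjusted p of 0.0050. Without the filter on low counts this p was 0.011 and the call was lost. It was the 1 gene called among 38 tested signalling and sensing genes, of 54 listed, and 0 were called higher by edgeR, with 4 higher and 2 lower at an unadjusted p under 0.05 (10.7% and 11% of all tested genes). DESeq2 also called 1 gene of this list.

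Of 82 further interferon-response genes, 61 were tested, with a median log2 fold change of 0.059, and 41 lay above 0 and 20 below. They ran from -0.26 (CALR) to 1.05 (CASP1, at 15 to 40 reads per library and not called). By edgeR 0 were called higher and 1 lower. At an unadjusted p under 0.05 there were 11 higher and 8 lower, against 10.7% and 11% of all tested genes, and DESeq2 called 0 higher and 1 lower. The called gene was CALR, a chaperone that helps assemble HLA class I with peptide, and it fell from 20437 and 20875 normalized counts in vehicle to 17345 and 17089 in EC359, with a log2 fold change of -0.26 (SE 0.030) and an edgeR adjusted p of 0.0023. With either EC359 library left out, 0 genes of either list were called by edgeR. At an unadjusted p under 0.05 without EC359 replicate 1 there were 8 higher and 4 lower further response genes, and 9 higher and 3 lower without EC359 replicate 2. The corresponding numbers of signalling and sensing genes were 1 higher and 1 lower, and 2 higher and 3 lower. APOL6, which was looked at after its values were seen, had 109 and 119 normalized counts in vehicle and 188 and 184 in EC359, a log2 difference of 0.70 (SE 0.13) with an edgeR adjusted p of 0.017, and was not called. At an edgeR adjusted p under 0.05, 2 genes of this list were higher (APOL6 and MOV10) and 2 lower (CALR and ZNFX1). Over all tested genes that threshold gave 1.68% higher and 2.64% lower. The chemokines CXCL10 and CXCL11, and RSAD2, MX2, CMPK2 and IDO1, all strongly interferon-induced in other settings, had 0 reads in all 4 libraries.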

How the data were processed

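Per the labels and the methods of the study, total RNA of ES2 cells was made into stranded TruSeq mRNA libraries and sequenced as 50-base single reads. The submitters' processing notes name CASAVA 1.8.2 and TopHat2 2.0.8b. Reads were aligned to UCSC hg19 and counted by HTSeq on NCBI RefSeq genes, with the strand setting not given in the sources used here. The authors deposited raw counts for each gene symbol, with no normalization. Rows naming no gene were left out of the library sizes; reads on no feature were 10.9% to 12.1% of reads and ambiguous reads 0.852% to 0.879%.

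The members and lists were chosen with earlier results of these data known. Counts were tested with edgeR 4.0.16 (quasi-likelihood test, TMM factors, R 4.3.3) over all genes that passed filterByExpr (minimum count 10, minimum total 15), with Benjamini-Hochberg adjustment and a threshold of 0.01, the study's own, in place of the study's DESeq. The 4 libraries entered without a replicate block. Standard errors were the log2 fold change over the square root of F. Errors written with ± are SDs of 2 libraries. RPKM was computed from canonical transcript lengths of GENCODE on GRCh37, and 91.7% of symbols matched that annotation. Members were named in full by a rule: SAMD9L and PARP14, called members, their neighbours, and the largest change in each role group at 50 or more mean normalized counts. Alternatives were RLE, upper-quartile and total-count scaling, no filter, a replicate block, and an adjusted p under 0.05. Trends with GC or length were also removed by loess in R (span 0.3) and given to edgeR as offsets. Each library was left out in turn, and DESeq2 1.42.0 was run without independent filtering. DESeq2 with independent filtering was added after the data were seen, and gave SAMD9L no adjusted p. Human samples were an established line, and all 4 libraries were used. A signalling gene of the lists is not reported here.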

Additional observations from a re-analysis of the deposited data

How the results depend on the processing

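The direction of SAMD9L, PARP14 and SAMD9 was the same under every alternative that gave the gene a value (SAMD9L was not given with DESeq2 and independent filtering), with log2 fold changes of 0.84 to 0.89, 0.53 to 0.64 and 0.36 to 0.44. The 139 genes called over the whole table (38 higher, 101 lower) became 61 without the filter, 1082 with the GC trend removed, 549 at an adjusted p under 0.05, 230 with DESeq2 and independent filtering, and 0 to 539 with 1 library left out (390 without vehicle replicate 1, 539 without vehicle replicate 2, 0 without EC359 replicate 1 and 2 without EC359 replicate 2). Scaling by total counts alone gave 52 higher and 68 lower. The members called, 3, became 6 with the GC trend removed and 0 to 3 with 1 library left out. Further interferon-response genes called, 1, became 8 with the GC trend removed, 4 at an adjusted p under 0.05 and 0 to 3 with 1 library left out. Signalling and sensing genes called, 1, became 0 without the filter, 2 with the GC trend removed and 0 to 1 with 1 library left out. The median of members ran from 0.083 to 0.17 with 1 library left out. The cause of these moves was not tested, other than that leaving out a library leaves its group with 1 sample, which is then assumed to vary like the other group.

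With a replicate block, 1539 genes were called over the whole table, 6 members, 9 further response genes and 3 signalling and sensing genes. The members called were SAMD9L, PARP14, SAMD9, DTX3L, IRF7 and PARP12. Over the tested genes, the deviations of vehicle replicate 1 and EC359 replicate 1 from their group means had a correlation of 0.11. With 2 libraries per group, the deviations of replicate 2 mirror these and add nothing. The labels do not say that a number marks a shared culture or day, so whether same-numbered libraries share more than a number is unknown.

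Of 51 tested members, 36 did not change sign under any alternative and 15 did. Values of the other sign outside left-out libraries were -0.013 for ZC3HAV1, 0.011 for IFI44, -0.0046 for TAP2, -0.015 for RNF213 and 0.051 for B2M with the length trend removed; 0.012 for IFIT5, 0.015 for IFI44 and 0.024 for B2M with total counts alone; and -0.0041 for DDX58 with the GC trend removed. RNF213 was also -0.00013 with RLE factors, -0.00084 without the filter and -0.00014 with either DESeq2 setting. With 1 library left out, log2 fold changes ran from -0.014 to 0.31 for PARP9, -0.10 to 0.0035 for IRF3, -0.076 to 0.050 for IFIT5, -0.040 to 0.075 for DDX58, -0.14 to 0.27 for ISG20, -0.65 to 1.01 for USP18, -0.012 to 0.0096 for RNF213, -0.18 to 0.81 for BST2, -0.016 to 0.070 for IFI16, -0.11 to 0.099 for IFI44, -0.41 to 0.38 for IFI44L, -0.0033 to 0.037 for TAP2, -0.037 to 0.033 for B2M and -0.019 to 0.23 for HLA-C. With 2 libraries per group and under 100 reads, as for ISG15, USP18 and BST2, standard errors above 0.3 on the log2 scale limit what could be seen.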
